A study of Mus musculus with 12 samples.

Results

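The 9 genes described here encode the peroxisome proliferator-activated receptors (Ppara, Ppard and Pparg), the retinoid X receptors (Rxra, Rxrb and Rxrg) and the PGC-1 coactivators (Ppargc1a, Ppargc1b and Pprc1). They were chosen by name, out of 21938 protein-coding genes on chromosomes 1 to 19, X and Y. MOF (also called KAT8), the acetyltransferase that modifies lysine 16 of histone H4, was mapped by chromatin immunoprecipitation and sequencing (ChIP-seq), and a MOF peak was counted for a gene when any base of it lay in the gene body or within 3 kb of an annotated start site. Genes, transcripts and start sites were those of GENCODE mouse release M21, on the GRCm38 build. Of the 19773 peaks in Mof+/+ tissue, 11 lay at 6 of the 9 genes (Ppard, Pparg, Rxrb, Ppargc1a, Ppargc1b and Pprc1), and of the 731 peaks in Mof+/- tissue 1 lay at 1 gene (Pprc1). No peak of either genotype was counted for Ppara, Rxra or Rxrg.

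The tissue was visceral white fat of C57BL/6 mice, 8 weeks old and on a standard diet, either wild type (Mof+/+) or with 1 intact copy of Mof (Mof+/-, labelled Mof heterozygous). Both genotypes were profiled by ChIP of MOF, ChIP of histone H3 and sequencing of the input, with 2 libraries for each of these 6 groups and 12 in all. A single peak list was analysed for each genotype, with no values per library, so no comparison here carries a spread between animals and none was tested. Visceral fat is a mixture of cells, so that fewer cells of a type with MOF at a gene and less MOF per cell cannot be told apart. The labelled tissue was checked against marker genes: 6 of 8 adipocyte markers had a Mof+/+ peak under the same rule (all but Lep and Retn), as did 4 of 4 B cell, 4 of 4 T cell, 1 of 4 macrophage, 1 of 4 endothelial and 0 of 4 mesothelial markers, beside 44.5% of all protein-coding genes. None of these markers had a Mof+/- peak, beside 1.89% of all protein-coding genes. The part of these cell types in the peaks at the 9 genes was not tested.

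PPARs are nuclear receptors that are activated by fatty acids and their derivatives, and they bind DNA as pairs with an RXR. PPARG drives the formation of fat cells and the storage of lipid in them, PPARA and PPARD direct fatty acid oxidation, and the RXRs also pair with the receptors for thyroid hormone, retinoic acid and oxysterols. The PGC-1 coactivators bind to these and other factors, do not bind DNA themselves, and raise the expression of genes for mitochondria and oxidative metabolism.

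The sequences below show the kinds of site at which the 9 genes did and did not carry a MOF peak. All are from GRCm38, written 5′ to 3′ on the strand named, in lower case with every CG dinucleotide in capitals. The first 4 are the 200 bases before a start site. Ppard-201 had a Mof+/+ peak next to its start, whereas the nearest Mof+/+ peak was 63338 bp from Pparg-202 and 86812 bp from the promoter that Rxra-201 shares with Rxra-206 (measured from the nearer of their starts), although their windows held 20 and 39 CG dinucleotides, more than the 14 of Ppard-201. Pparg-201 starts at the promoter known for the fat-cell isoform of PPARG. Its window held 1.
Ppard-201, chr17:28232500-28232699, plus strand: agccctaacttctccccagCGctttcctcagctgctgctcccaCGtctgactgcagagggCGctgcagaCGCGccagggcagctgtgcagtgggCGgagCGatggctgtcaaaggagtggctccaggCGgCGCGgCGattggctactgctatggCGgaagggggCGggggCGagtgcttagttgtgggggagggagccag
Pparg-202, chr6:115360751-115360950, plus strand: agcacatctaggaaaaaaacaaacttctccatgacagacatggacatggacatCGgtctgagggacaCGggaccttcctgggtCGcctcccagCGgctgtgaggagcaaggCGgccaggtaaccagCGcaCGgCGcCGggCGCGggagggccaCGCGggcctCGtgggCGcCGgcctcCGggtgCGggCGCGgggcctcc
Pparg-201, chr6:115421866-115422065, plus strand: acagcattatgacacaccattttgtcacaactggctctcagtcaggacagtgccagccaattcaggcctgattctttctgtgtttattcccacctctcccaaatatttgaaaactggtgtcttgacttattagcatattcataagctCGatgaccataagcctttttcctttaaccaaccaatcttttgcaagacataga
Rxra-201, chr2:27677001-27677200, plus strand: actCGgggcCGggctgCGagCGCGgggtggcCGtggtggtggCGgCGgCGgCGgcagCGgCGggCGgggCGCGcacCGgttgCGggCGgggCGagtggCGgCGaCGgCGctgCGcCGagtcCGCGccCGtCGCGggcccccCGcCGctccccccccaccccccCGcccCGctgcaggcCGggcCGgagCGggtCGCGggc
The next is the whole of the 129 bases between the divergent starts of Rxrb and Slc39a7, with 16 CG dinucleotides, which lay inside a Mof+/+ peak.
Rxrb to Slc39a7, chr17:34031683-34031811, plus strand: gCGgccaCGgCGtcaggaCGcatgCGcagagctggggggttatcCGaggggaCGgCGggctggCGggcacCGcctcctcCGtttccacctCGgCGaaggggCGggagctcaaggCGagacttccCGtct
The last 4 are the 151 bases around the summit, the position of highest MOF signal in a Mof+/+ peak. The strongest of them, at the coding starts of Pprc1, held 17 CG dinucleotides. The summits at Ppard, Ppargc1a and Pparg held 8, 3 and 1.
Pprc1 summit, chr19:46057079-46057229, plus strand: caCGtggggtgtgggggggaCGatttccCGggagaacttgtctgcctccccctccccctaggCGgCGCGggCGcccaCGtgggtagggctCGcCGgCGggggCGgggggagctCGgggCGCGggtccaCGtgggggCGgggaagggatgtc
Ppard summit, chr17:28232959-28233109, plus strand: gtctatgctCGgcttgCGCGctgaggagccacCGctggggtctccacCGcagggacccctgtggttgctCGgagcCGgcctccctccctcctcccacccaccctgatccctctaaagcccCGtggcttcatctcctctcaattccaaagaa
Ppargc1a summit, chr5:51552400-51552550, minus strand: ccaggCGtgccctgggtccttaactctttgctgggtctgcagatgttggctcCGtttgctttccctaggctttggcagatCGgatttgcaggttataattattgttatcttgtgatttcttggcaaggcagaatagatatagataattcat
Pparg summit, chr6:115424599-115424749, plus strand: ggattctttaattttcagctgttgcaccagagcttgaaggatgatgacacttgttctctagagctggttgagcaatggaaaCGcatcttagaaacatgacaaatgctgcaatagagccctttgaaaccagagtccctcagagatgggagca

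Among the PPAR genes, MOF peaks were found at Ppard and Pparg and both were weak. Strength is given as the fold enrichment at the summit, a ratio that the authors' peak caller computed as ChIP fragments plus 1 over the local input background plus 1, together with its −log10 p-value and the number of fragments that these values imply. Ppard (chromosome 17, 28232700 to 28301474) had a peak from 28232823 to 28233302, whose edge lay 16 bp from the nearest of the 6 clustered start sites of its main promoter. Its summit was at +227 bp, in an intron, with a fold enrichment of 2.88, a −log10 p of 4.09 and 12 fragments (95% Poisson interval 6.2 to 21) over a background of 3.52. Only 18% of the Mof+/+ peaks had a lower fold enrichment. The other promoters of Ppard, those of Ppard-204 with Ppard-206 and of Ppard-208, were 38406 bp and 19457 bp from the nearest Mof+/+ peak. All intervals of this kind cover counting error only.

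Pparg (chromosome 6, 115360951 to 115490399) has 5 promoters, of which none had a Mof+/+ peak within 1 kb. The gene's single peak, from 115424289 to 115424799, lay in an intron, with its edge 2223 bp and its summit 2608 bp downstream of the start of Pparg-201. It was the weakest of the 11, with a fold enrichment of 2.65, a −log10 p of 3.52 and 11 fragments (5.5 to 19.7), and 3.7% of the whole list had a weaker p-value. The smallest summits in the list held 11 fragments as well. From the other start sites the nearest Mof+/+ peak was 15176 bp (Pparg-205) to 63338 bp (Pparg-202) away. Pparg-202 starts in the only CpG-rich promoter of the gene, with a ratio of observed to expected CpG of 0.947 over the surrounding 1001 bp, while that ratio was 0.199 around Pparg-201. The peak itself, at 0.15, was poor in CpG too. Neither this peak nor that of Ppard passed a stricter q-value of 0.01.

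Ppara (chromosome 15, 85734983 to 85802819) had no peak in either list, although its first start sites lie in CpG-rich promoters with CpG ratios of 0.657 (Ppara-204) and 0.769 (Ppara-201, Ppara-202, Ppara-203 and Ppara-206). The nearest Mof+/+ peaks were 8.3 kb past the 3′ end of the gene, with a fold enrichment of 5.09 and 22 fragments, and 27.6 kb upstream in the noncoding gene Lncppara, with a fold enrichment of 3.10 and 13 fragments. The first of these was stronger than any Mof+/+ peak counted for a PPAR gene. The nearest Mof+/- peak was 66.9 kb upstream, also in Lncppara.

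**Figure D1:**
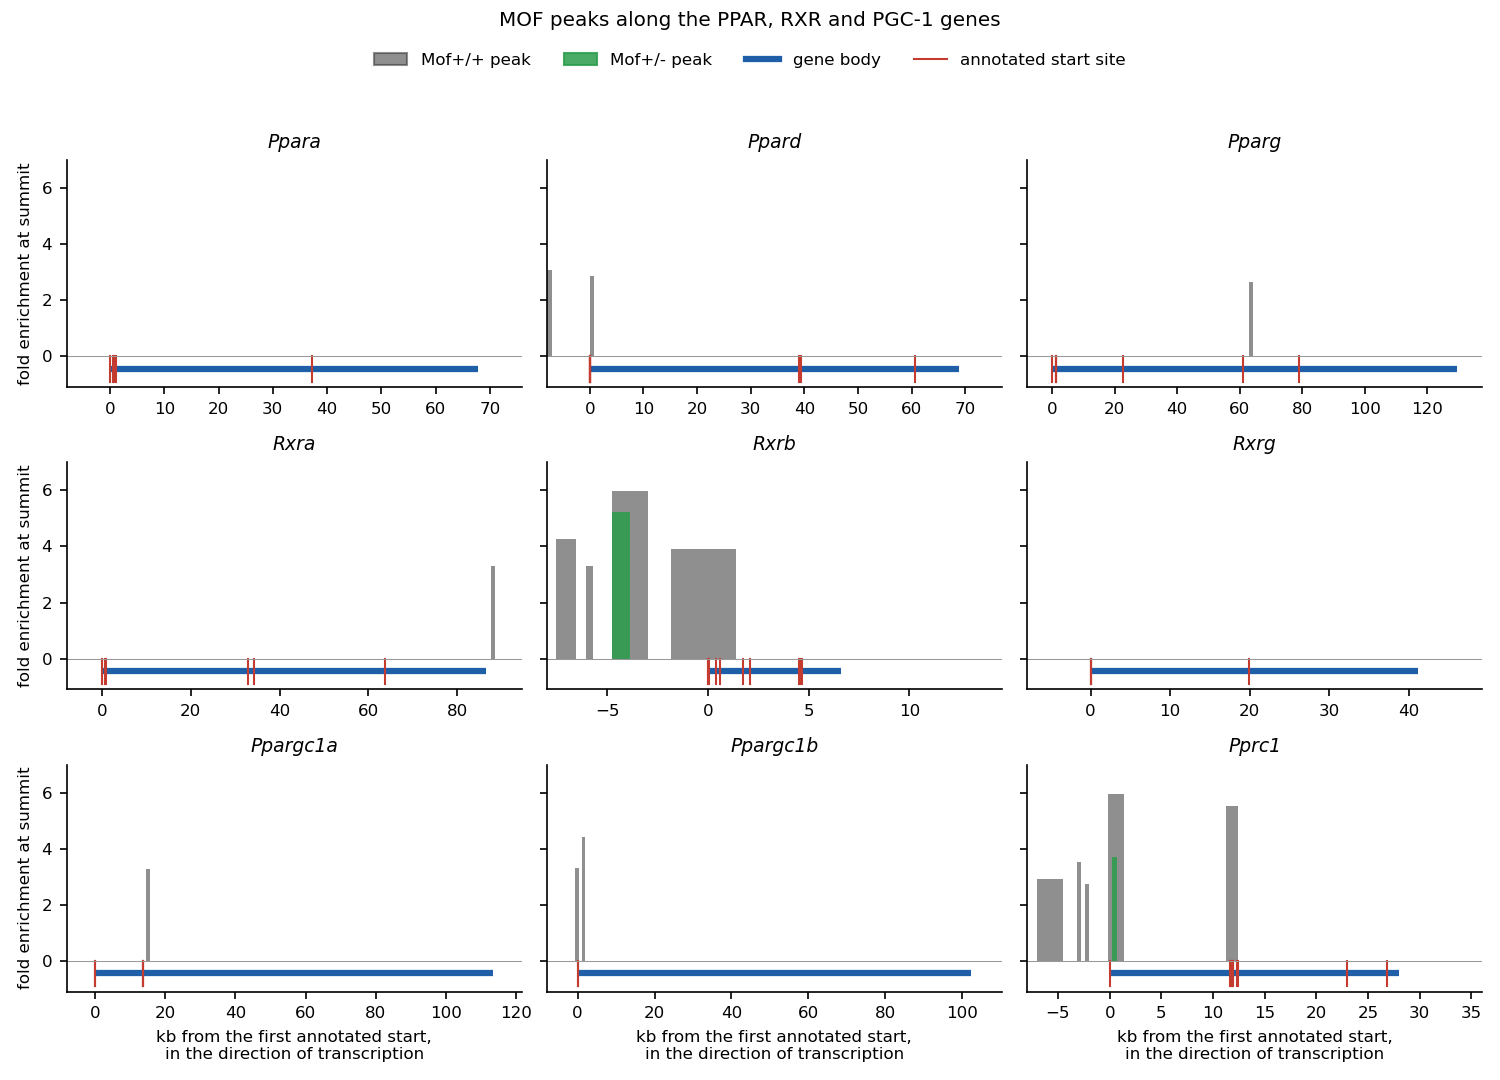
MOF peaks along the 9 genes, with the distance from the first annotated start (kb, in the direction of transcription) against the fold enrichment at the summit (ratio). Grey bars are Mof+/+ peaks, green bars Mof+/- peaks, blue lines gene bodies and red ticks annotated start sites. Narrow peaks are drawn at a minimum width, and peaks beyond the 3 kb window are drawn too where they fall inside the panel. The panels of Ppara and Rxrg are empty, that of Rxra holds 1 peak past its 3′ end, and the tallest bars are at Rxrb and Pprc1.

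Of the RXR genes only Rxrb carried peaks. Rxrb (chromosome 17, 34031812 to 34038399) is 6.6 kb long and sits among other genes, and its 2 Mof+/+ peaks were both shared with them. The wider peak, from 34029966 to 34033180, spanned 3215 bp, wider than 98.0% of the list, and covered the Rxrb start and that of Slc39a7, a zinc transporter gene that is transcribed the other way. Its summit at 34032532 lay at +131 bp of Rxrb-202, in a noncoding exon, with a fold enrichment of 3.92, a −log10 p of 8.62 and 22 fragments (13.8 to 33.3) over a background of 4.87. The same peak ended 372 bp before the first of the start sites of Rxrb-206 and Rxrb-210, whose promoter is poor in CpG (0.251). The promoter of Rxrb-205, Rxrb-208 and Rxrb-209 was 3143 bp from it.

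The second Rxrb peak, from 34027032 to 34028822, entered the count because its edge lay 2990 bp from the nearest Rxrb start. Its summit at 34027587 lay outside the 3 kb window, at -4225 bp, in exons of H2-Ke6 and Gm20427. It had the highest fold enrichment of the 11 peaks, 5.97, with a −log10 p of 14.8 and 26 fragments (17.0 to 38.1). The sequence at this summit lay in part in untranslated exon sequence of its neighbours and is not printed.

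Rxra (chromosome 2, 27676440 to 27762957) and Rxrg (chromosome 1, 167598384 to 167639623) had no peak in either list. At Rxra the promoter of Rxra-201 and Rxra-206 was the most CpG-dense of all, with 78.3% GC, 151 CG dinucleotides in 1001 bp and a ratio of 0.985, and the nearest Mof+/+ peak was 86812 bp from it. A Mof+/+ peak did lie 1.1 kb past the 3′ end of Rxra, from 27764074 to 27765027, between genes, with a fold enrichment of 3.32 and 14 fragments. The main Rxrg promoter had a CpG ratio of 0.606, just over the limit of 0.6 for a CpG-rich promoter, and Rxra-204 lay just under it at 0.583. The peaks nearest to Rxrg were 51.2 kb (Mof+/+, fold enrichment 3.03) and 51.0 kb (Mof+/-, fold enrichment 3.92) past its 3′ end, both in Lmx1a.

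All 3 PGC-1 genes had Mof+/+ peaks, and the highest fold enrichments among them were those of 2 of the 4 peaks at Pprc1. Ppargc1a (chromosome 5, 51454250 to 51567726, minus strand), which encodes PGC-1α, had 1 peak from 51552366 to 51552857, in an intron, with its edge 1014 bp and its summit 1396 bp downstream of the Ppargc1a-201 start. Its fold enrichment was 3.29, its −log10 p 5.70 and its summit held 16 fragments (9.1 to 26.0) over a background of 4.17. The peak thus lay just outside the 1 kb counted here as a promoter. With the start sites of RefSeq, an annotation tried after the data were seen, it lay 227 bp from a start of this gene. The upstream promoter of Ppargc1a-202 and Ppargc1a-204, known from muscle, was 14847 bp from the peak. Both promoters were poor in CpG (0.177 and 0.228).

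Ppargc1b (chromosome 18, 61298136 to 61400431, minus strand) has a single, CpG-rich promoter with a ratio of 0.731. A Mof+/+ peak from 61400239 to 61400788 covered its start, with the summit at +99 bp in coding sequence, a fold enrichment of 3.32, a −log10 p of 5.34 and 14 fragments (7.7 to 23.5). A second, stronger peak lay in the first part of the gene, from 61398525 to 61399289, with its summit 1527 bp downstream of the start in an intron. It had a fold enrichment of 4.42, a −log10 p of 8.90 and 19 fragments (11.4 to 29.7), and the start of Mir378a, the microRNA gene that Ppargc1b hosts, was within 1 kb of it. At 0.94 it had the highest CpG ratio of the 11 peaks.

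Pprc1 (chromosome 19, 46044886 to 46072915), which encodes the PGC-1-related coactivator, had 4 Mof+/+ peaks. The one at its coding start sites, from 46056158 to 46057329, covered the group of start sites that holds all 7 coding transcripts. Its summit at 46057154 lay at -82 bp of the nearest of these start sites, with a fold enrichment of 5.53, a −log10 p of 13.0 and 24 fragments (15.4 to 35.7). The other strong peak, from 46044719 to 46046225, covered the first Pprc1 start, that of a noncoding transcript. This start lay inside the neighbouring gene Ldb1, which encodes an adaptor of LIM-domain proteins and has a start within 1 kb of the peak. The summit of the peak, at 46045579, was at +693 bp of the noncoding start. It had a fold enrichment of 5.93, a −log10 p of 15.5 and 28 fragments (18.6 to 40.5), the largest number at the 9 genes. The remaining peaks lay in an intron of Ldb1, with summits at -3046 bp and -2207 bp of the same start, fold enrichments of 3.54 and 2.73, and 15 fragments each. Without the noncoding transcript, only the peak at the coding starts counted for Pprc1.

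Against the list as a whole, the 11 peaks were ordinary in strength. Their median fold enrichment was 3.54, against 3.40 for all Mof+/+ peaks, and 6 of the 11 were above that median. The median −log10 p was 6.00 in both, and the median number of fragments was 16 in both. Their fold enrichments ran from 2.65 (Pparg) to 5.97 (Rxrb), while the highest in the list was 23. Widths ran from 281 to 3215 bp, with a median of 550 bp against 609 bp. The 95% intervals of the smallest summit (Pparg, 5.5 to 19.7 fragments) and of the largest (Pprc1, 18.6 to 40.5) overlapped. Differences in fragments between summits were not tested.

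**Figure D2:**
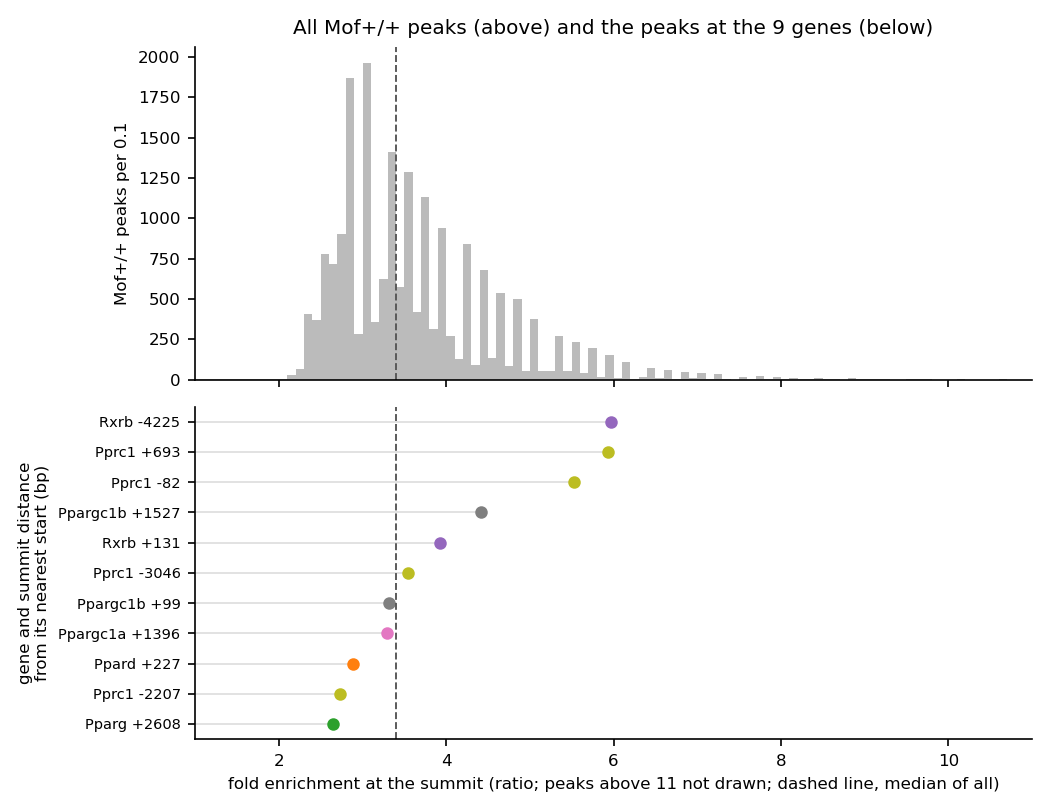
Fold enrichment at the summit (ratio) of all Mof+/+ peaks, counted per 0.1 (above; 5 peaks over 11 are not drawn), and of each Mof+/+ peak at the 9 genes (below), named by gene and by the distance in bp of its summit from the gene's nearest start. The dashed line is the median of all peaks, 3.40, and the points run from 2.65 at Pparg to 5.97 at Rxrb.

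Read per gene, 6 of the 9 genes had a Mof+/+ peak under the rule, where 44.5% of all protein-coding genes did, and 4 of the 9 (Ppard, Rxrb, Ppargc1b and Pprc1) had one within 1 kb of a start site, where 41.0% did. A share of 4 in 9 is near that background. The 9 genes have 61 transcripts and 59 start sites, which form 28 promoters when sites within 500 bp are joined, and 6 of the 28 had a Mof+/+ peak within 1 kb. Promoters were called CpG-rich when the surrounding 1001 bp held over 50% GC and a CpG ratio over 0.6. Of the 10 CpG-rich promoters of these genes 5 had a peak within 1 kb, beside 66.6% of the CpG-rich promoters of all protein-coding genes. Of the 18 CpG-poor promoters 1 had a peak, that of Rxrb-206 and Rxrb-210, beside 9.88% of all CpG-poor promoters. The CpG-rich promoters without a peak were those of Ppara-204, of Ppara-201 with its neighbours, of Pparg-202, of Rxra-201 and of Rxrg-201. Their CpG ratios, 0.606 to 0.985, covered the range of those with a peak, 0.699 to 0.913.

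**Figure D3:**
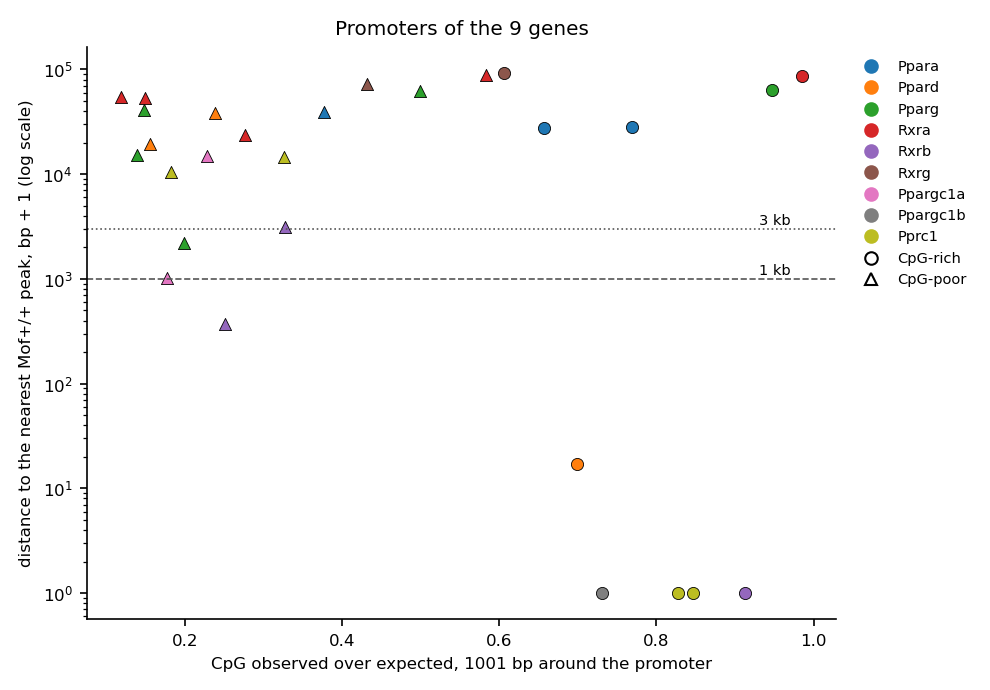
Each of the 28 promoters of the 9 genes, with the ratio of observed to expected CpG in the surrounding 1001 bp (horizontal axis) against the distance in bp to the nearest Mof+/+ peak plus 1 (vertical axis, log scale). Circles are CpG-rich and triangles CpG-poor promoters, and the lines mark 1 kb and 3 kb. The 5 circles low in the plot are at Ppard, Rxrb, Ppargc1b and Pprc1, while the other 5 lie at 27.6 kb or more.

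The comparison of genotypes asked which of these peaks were still called with 1 copy of Mof. Of the 9 genes 1 had a Mof+/- peak, while 1.89% of all protein-coding genes had one under the rule and 1.32% within 1 kb of a start site. This peak, at Pprc1, ran from 46045068 to 46045559, inside the Mof+/+ peak at the Ldb1 start, and its summit at 46045157 was in an untranslated exon of Ldb1 and an intron of Pprc1, 422 bp from the Mof+/+ summit. It had a fold enrichment of 3.71 and 14 fragments (7.7 to 23.5) over a background of 3.05, against 5.93 and 28 fragments (18.6 to 40.5) over 3.89 in Mof+/+. It was counted for Pprc1 only through its noncoding transcript, so that with protein-coding or RefSeq transcripts (both tried after the data were seen) 0 of the 9 genes had a Mof+/- peak. The peak at the coding starts of Pprc1, with 24 fragments in Mof+/+, had no Mof+/- counterpart.

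Next to Rxrb a Mof+/- peak lay just outside the window, from 34027048 to 34027927, 3885 bp from the nearest Rxrb start. It overlapped the stronger Mof+/+ peak of Rxrb, with the summits 133 bp apart, and had a fold enrichment of 5.24 and 17 fragments (9.9 to 27.2) over a background of 2.44, against 5.97 and 26 fragments (17.0 to 38.1) over 3.52. For the other genes the nearest Mof+/- peak was 66.9 kb (Ppara) to 13727.1 kb (Ppargc1a) from a start site, and for Pparg 2053.5 kb.

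The lists give no library totals, and their coverage was compared through the input background at the summits. The lowest in the Mof+/- list was 2.26 fragments against 3.52 in the Mof+/+ list, a ratio of 1.56, and the weakest −log10 p was 4.72 against 3.25. At the lowest background a Mof+/- summit therefore needed 11 fragments, a fold enrichment of 3.68. For each Mof+/+ peak the fragments and background were divided by 1.56, and set against the weakest Mof+/- p-value. Of the 11 peaks 5 passed at these scaled values, beside 37.0% of all Mof+/+ peaks: both at Rxrb, the stronger one at Ppargc1b, and the one at the Ldb1 side and the one at the coding starts of Pprc1. Of these 5, a Mof+/- peak overlapped the one at -4225 bp of Rxrb and the one at the Ldb1 side of Pprc1, while 5.01% of the 7309 such peaks in the whole list overlapped one. At Rxrb the Mof+/+ peak had 17 scaled fragments, against 17 in the Mof+/- peak. At Pprc1 it had 18, against 14 in the Mof+/- peak. The other 3 were not in the Mof+/- list, with 14 scaled fragments where 13 were needed (Rxrb start), 12 where 11 were needed (Ppargc1b) and 15 where 11 were needed (Pprc1 coding starts). The other 6 peaks, among them those of Ppard (8 of 11 fragments needed), Pparg (7 of 11) and Ppargc1a (10 of 12), were below it. The scaled values carry no counting error, and several were within a few fragments of the number needed, so that they say nothing certain of a single peak. Coverage and genotype cannot be told apart with 1 list each.

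**Figure D4:**
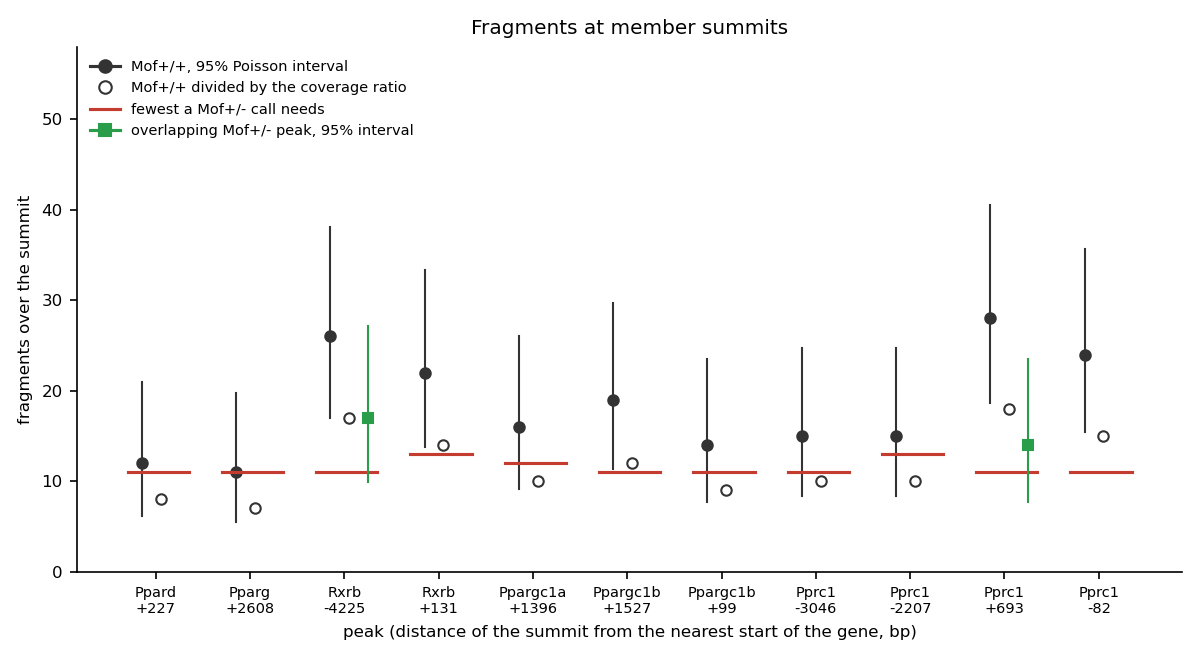
Fragments over the summit of the 11 Mof+/+ peaks (filled circles, with 95% Poisson intervals), the same divided by the coverage ratio of 1.56 (open circles), the fewest fragments that a Mof+/- peak needed there (red lines) and the overlapping Mof+/- peaks (green squares, with 95% intervals). Peaks are named by gene and by the distance in bp of the summit from the gene's nearest start. Open circles are above the red line for 5 peaks, and green squares stand at Rxrb -4225 and Pprc1 +693.

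The genes that work with these receptors were counted in the same way. Of 13 other receptors that pair with an RXR, 7 had a Mof+/+ peak, all within 1 kb of a start (Nr1h2, Nr1h3, Nr4a1, Nr4a2, Rara, Rarg and Thra), and Rara and Rarg also had a Mof+/- peak. Of 7 other factors that PGC-1 coactivators work with, 4 had a Mof+/+ peak (Esrra, Foxo1, Gabpa and Nrf1). Of 12 coregulators of PPARG, which include the acetyltransferases Crebbp and Ep300, the Mediator subunit Med1 and the corepressor Ncor1, 11 had a Mof+/+ peak, all within 1 kb of a start, with Prdm16 the exception. Of 12 PPARG targets in fat cells 11 had one, Cidea being the exception, and 8 of these had it within 1 kb of a start. None of the PGC-1 partner factors, the coregulators or the targets had a Mof+/- peak, and at a background of 1.89% a count of 0 in lists this short shows nothing of them. For the Mof+/+ peaks the background shares are those given above, 44.5% for the rule and 41.0% within 1 kb.

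In base composition the median of the 11 peaks lay above that of the list. Their median GC content was 61.7% against 52.4% for the 19753 Mof+/+ peaks on chromosomes 1 to 19, X and Y (peaks on unplaced scaffolds were left out here), and their median CpG ratio 0.66 against 0.40, from 0.04 at the Ldb1 intron peak to 0.94 at Ppargc1b. Chromatin was cut with CviKI-1, whose sites hold a central GC, and these sites ran from 12.2 per kb (Ppargc1a) to 38.2 per kb (the Ppargc1b start) with a median of 25.2, against 21.2 for the list. PPAR and RXR pairs bind repeats of AGGTCA. On either strand, AGGTCA was present in 5 of 13 RefSeq promoter windows of these genes (250 bases before to 50 after a start, 8 of the 9 genes matched), at Pparg, Pprc1, Rxra and Rxrg, and in 16.3% of all 32851 such windows. It was present in 2 of the 11 summit windows of 301 bp, at the Rxrb start and at -3046 bp of Pprc1, and in 16.4% of those of the same 19753 peaks. A direct repeat of AGGTCA with 1 base between the copies was in 0 of the windows of these genes, in 0.04% of all promoter windows and in 0.066% of all summit windows.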

How the data were processed

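MOF ChIP-seq peaks were taken from 2 deposited lists, 1 for each genotype; the lists name no library. Per the study's methods the authors mapped paired-end reads to GRCm38 with snakePipes and called peaks with MACS2 (2.1.1.20160309.3, per the labels) against input, with a q-value threshold of 0.1 and a bandwidth of 200. Whether replicates were pooled is not given in the sources used here. The design text speaks of 2 control and 3 Mof+/- animals, the labels of 2 replicates per genotype. The study's reporting summary gives 2 littermates per genotype for the ChIP-seq. The deposited fold enrichment is a ratio made by the authors' caller. The deposited −log10 p-value comes from the same caller, as do the deposited q-value score (a −log10 q-value) and the summit position. Another value column of each deposited list was not used, and H3 libraries were not analysed here.

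Whole fragments and the input background at a summit were solved from that ratio and the p-value of a Poisson model (tolerance 0.002), which worked for 19771 of 19773 Mof+/+ and 730 of 731 Mof+/- peaks, and the solver was tested on simulated data. The lists give no library totals. Intervals are exact 95% Poisson intervals. Genes came from GENCODE M21 and promoter windows from RefSeq, both on GRCm38; overlap meant at least 1 bp. Python 3.11.15 with pandas 2.3.3 and scipy 1.17.1 was used. All 9 genes and every peak under the rule are named, and other genes where a peak touches them or a list is counted. The genes and lists were chosen with earlier results of these data known. From the list of PPARG coregulators, 1 gene was left out whatever its values and is not reported here. No test was made, since each genotype had 1 list.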

Additional observations from a re-analysis of the deposited data

How the results depend on the processing

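Of 31 alternatives, 24 stayed within 1.5 times of the reported count. At a q-value of at most 0.001, 3 of the 9 genes (Rxrb, Ppargc1b and Pprc1) kept a Mof+/+ peak, with 6 peaks in all, and 2 genes within 1 kb of a start. At a q-value of at most 0.01, or at the weakest Mof+/- p-value, 4 genes and 8 peaks were left, without Ppard and Pparg. With start sites joined at 100 bp, 11 of 36 promoters had a peak, since the same peaks were then counted at more promoters. Genes with a Mof+/- peak numbered 2 within 10 kb of the gene body and 0 with protein-coding transcripts only or with RefSeq transcripts, both added after the data were seen. No paired analysis was possible because the columns of both lists carry no replicate number, and for the same reason no replicate could be left out. Single summits of 11 to 28 fragments limit every value, so a gene without a peak may still carry MOF.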

Other observations

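The palindrome CACGTG, the E-box, was looked for after the sequences had been seen, on 1 strand since it reads the same on both. It occurred 4 times in the 301 bp around the summit at the coding starts of Pprc1, 3 of them in the 151 bases printed in the report. It was present in 6.10% of the 19753 Mof+/+ summit windows, and 7 windows (0.035%) held at least 3 copies. Among the other summits of these genes it was present at the Rxrb start and at -2207 bp of Pprc1. None of the 13 RefSeq promoter windows of the genes held it, where 7.15% of all such windows did.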
